A study of Sus scrofa with 3 samples.

Results

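The genes described here encode the enzymes that attach glucuronic acid or glutathione to small molecules in the liver, together with the ABCC carriers that export the products. They were chosen by name, as the mRNA rows whose symbol begins with UGT1, UGT2, UGT3, GSTA, GSTM, GSTO, GSTP, GSTT, GSTK, GSTZ, MGST or ABCC and whose FPKM was above 0 in at least 1 library. Of the 22945 mRNA rows, 25 carried such a name and 24 were members, since ABCC12 was listed at 0 in all 3 libraries. No row was found under a GSTM or GSTT symbol. The members comprised 7 UDP-glucuronosyltransferases (UGTs), 7 cytosolic or mitochondrial glutathione S-transferases (GSTs), 2 microsomal glutathione S-transferases (MGSTs) and 8 ABCC carriers.

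Liver RNA came from Wuzhishan miniature pigs, a small Chinese breed, which were 6 to 7 months old when obtained for the study. Every group received a high-fat, high-cholesterol (HFC) diet for 12 weeks. IM pigs were intact males on this diet, CM pigs were castrated males on this diet, and CMT pigs were castrated males on this diet that were also given 10 mg/kg testosterone propionate weekly. There was no group on a normal diet. RNA of 3 pigs was pooled in equal amounts for each group and sequenced as 1 library, so the spread between pigs is unknown and no difference has a replicate check. Whole liver was sampled, and in such bulk RNA fewer cells of a type and less RNA per cell cannot be told apart.

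Glucuronidation and glutathione conjugation make lipophilic compounds water soluble. UGTs sit in the membrane of the endoplasmic reticulum and transfer glucuronic acid from UDP-glucuronic acid to bilirubin, bile acids, steroid hormones including testosterone metabolites, and drugs. GSTs add the thiol of glutathione to electrophiles such as lipid peroxidation products, and the conjugates, like the glucuronides, leave the hepatocyte through ABCC carriers into bile or blood.

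Values are FPKM, fragments per kilobase of exon and per number of fragments mapped, as the authors computed them. Per kilobase of transcript, 1 unit of FPKM corresponded to 2.51 reads in IM pigs, 3.42 in CM pigs and 2.04 in CMT pigs, and the reads recovered from the values summed to 27899708, 32102377 and 23220748. A gene was counted as higher or lower where its FPKM was at least 1 in all 3 libraries and the ratio reached 1.5-fold. The brackets after a ratio hold its 95% exact (Clopper-Pearson) binomial interval on the reads of both libraries, which covers counting error only. Where no reads were recovered, reads per kilobase took their place. The 2.51, 3.42 and 2.04 reads per unit were not proportional to the summed reads. They were also far fewer than the definition of FPKM gives at these sums. The deposited values are therefore larger than standard FPKM, by a factor that differs between libraries. Levels and the minimum of 1 hold on the deposited scale only. Scaling the columns to recovered reads instead moved the median log2 ratio over all mRNA features in CM versus IM from -0.02 to 0.22 and in CMT versus CM from 0.01 to -0.27, and directions were read against this shift.

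The members spanned the range from single reads to some of the most abundant liver transcripts. GSTA1 ranked 65th of all mRNA rows by FPKM in IM, 32nd in CM and 109th in CMT. At the other end, UGT3A1 had 1 read in each library, at FPKM values of 0.614 in IM pigs, 0.451 in CM pigs and 0.755 in CMT pigs. ABCC8, a regulatory subunit of potassium channels rather than a conjugate exporter, was listed at 0 in IM pigs, 1.25 in CM pigs and 0.191 in CMT pigs, from 0, 11 and 1 reads. UGT3A1 and ABCC8 did not reach the FPKM minimum, and the other 22 members did.

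**Figure D1:**
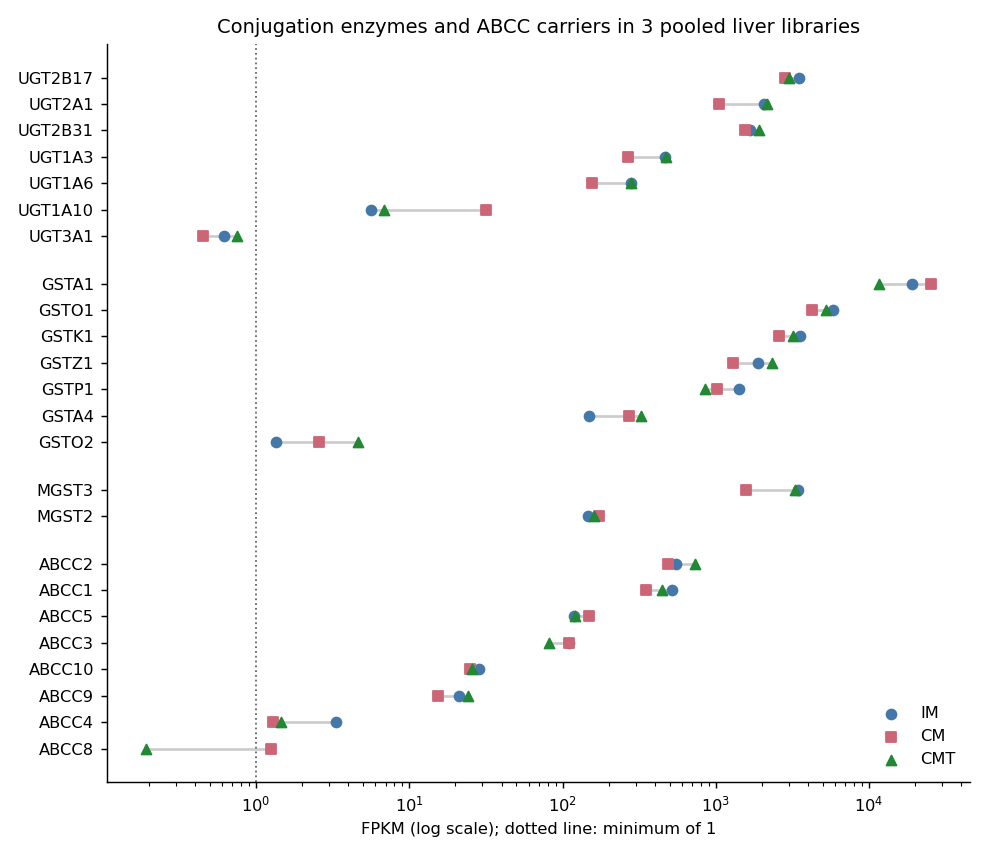
FPKM of the 24 members in the IM, CM and CMT libraries on a logarithmic axis, ordered by family and mean level, with a grey line joining the lowest and highest library. ABCC8 has no point for IM, where it was listed at 0. CM was the lowest library for UGT2A1, UGT1A3, UGT1A6 and MGST3, whose IM and CMT points lie close together, while UGT1A10 stands out to the right in CM.

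In CM compared with IM, 3 members were higher (UGT1A10, GSTA4 and GSTO2) and 5 were lower (UGT1A3, UGT1A6, UGT2A1, MGST3 and ABCC4). Among the 15613 mRNA features past the minimum, 11.1% were higher and 12.1% lower, 23.2% together, against 36.4% of the 22 members. The median log2 ratio was -0.37 over the members and -0.02 over all features, and 16 of the 22 members had a ratio below 1. After scaling to recovered reads 4 members were higher and 4 lower, beside 20.1% and 7.07% of all features. After scaling to equal column sums 5 were higher and 4 lower, beside 20.7% and 6.87%. GSTA1 joined the higher members under both scalings and UGT1A3 left the lower ones.

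In CMT compared with CM, 8 members were higher (UGT1A3, UGT1A6, UGT2A1, GSTZ1, GSTO2, MGST3, ABCC2 and ABCC9) and 2 were lower (UGT1A10 and GSTA1). Of all features, 12.1% were higher and 13.5% lower, 25.7% together, against 45.5% of the members. The median log2 ratio was 0.30 over the members and 0.01 over all features. This split depended on the scaling: to recovered reads 2 members were higher (UGT2A1 and MGST3) and 3 lower, beside 6.26% and 24.4% of all features, and to equal column sums 5 were higher and 3 lower, beside 6.73% and 22.9%. Both comparisons share the CM library, so a value particular to that library enters both with opposite sign.

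Between the CMT and IM libraries, where scaling moved the median of all features little, 2 members were higher (GSTA4 and GSTO2) and 3 lower (GSTA1, GSTP1 and ABCC4) in CMT. The share over all features was 6.67% higher and 10.1% lower, 16.8% together. The median log2 ratio over the members was 0.01, and 11 had a ratio above 1 and 11 below. CM was the lowest of the 3 libraries for 14 of the 22 members, or 63.6%, where 38.7% of all features had their lowest value in CM. After scaling to recovered reads it was the lowest for 9 members, beside 17.9% of all features.

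**Figure D2:**
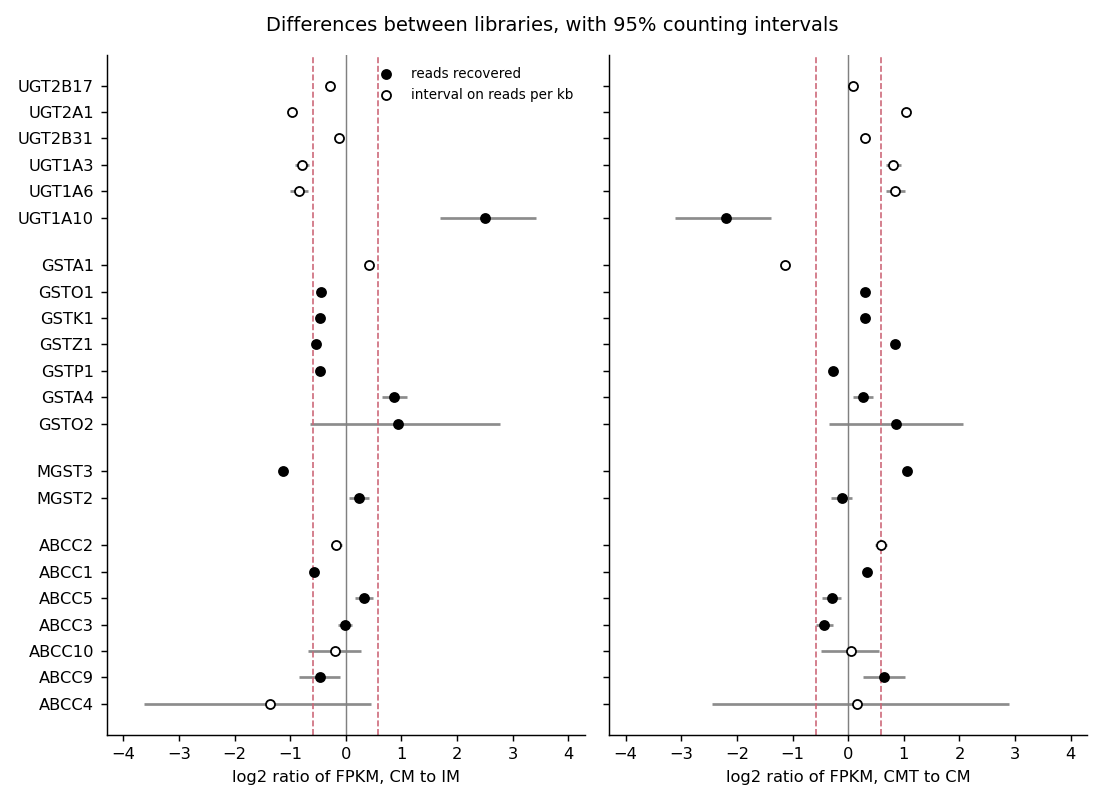
log2 ratios of FPKM for the 22 members past the minimum, CM to IM on the left and CMT to CM on the right, with 95% counting intervals as grey lines and dashed lines at 1.5-fold. Filled points have intervals on recovered reads and open points on reads per kilobase. MGST3, UGT2A1, UGT1A3 and UGT1A6 lie beyond the dashed line to the left in the first panel and to the right in the second, and UGT1A10 does the opposite.

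Among the UGT1 enzymes, the 2 abundant rows had their lowest value in CM, well below IM and CMT. UGT1A proteins are made from 1 locus by joining alternative first exons to shared downstream exons, and as a group they conjugate bilirubin, phenols, bile acids and many drugs. UGT1A3 had an FPKM of 466 in IM pigs, 269 in CM pigs and 472 in CMT pigs. The CM to IM ratio was 0.578 (0.529 to 0.630), the CMT to CM ratio 1.76 (1.60 to 1.93), and the CMT to IM ratio 1.01 (0.931 to 1.11). UGT1A6, which acts on small planar phenols, had 278 in IM pigs, 155 in CM pigs and 278 in CMT pigs. Its CM to IM ratio was 0.556 (0.496 to 0.624) and its CMT to CM ratio 1.80 (1.59 to 2.03). In both rows the IM and CMT libraries lay close together and CM lay apart. For both, the lower value in CM kept its direction under every scaling, but under scaling to recovered reads neither CMT to CM ratio reached 1.5-fold.

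UGT1A10, in humans a UGT1A form of the gut rather than the liver, went the other way. Its FPKM was 5.58 in IM pigs, 31.6 in CM pigs and 6.87 in CMT pigs, from 14, 108 and 14 reads. CM was 5.66-fold above IM (3.23 to 10.7), and CMT was at 0.217 of CM (0.115 to 0.381), while CMT and IM differed by less than counting error at a ratio of 1.23 (0.544 to 2.78). As deposited, it was the only member at least 1.5-fold above both other libraries in CM, a pattern that 6.87% of all features showed. It held 0.537% of the summed UGT level in CM and under that in the others, at 0.0703% in IM and 0.0879% in CMT. How the authors assigned reads on the shared UGT1A exons to these rows is not given in the sources used here. The sum over the UGT1 rows, which depends less on that assignment, was 749 in IM pigs, 455 in CM pigs and 757 in CMT pigs, with ratios of 0.608 (0.568 to 0.650) for CM to IM and 1.66 (1.55 to 1.78) for CMT to CM.

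UGT2 enzymes conjugate steroid hormones and bile acids, and the 3 UGT2 rows held most of the summed UGT level. UGT2A1 had an FPKM of 2059 in IM pigs, 1048 in CM pigs and 2144 in CMT pigs. It was thus 1.96-fold lower in CM than in IM, at a ratio of 0.509 (0.488 to 0.531), and 2.05-fold higher in CMT than in CM (1.96 to 2.14). UGT2B17, whose human counterpart glucuronidates androgens, had 3463 in IM pigs, 2843 in CM pigs and 3015 in CMT pigs. Its ratios of 0.821 (0.797 to 0.845) for CM to IM and 1.06 (1.03 to 1.09) for CMT to CM stayed within 1.5-fold. The second fell below 1 when scaled to recovered reads or to equal column sums. UGT2B31 had 1675 in IM pigs, 1538 in CM pigs and 1902 in CMT pigs, and none of its ratios reached 1.5-fold. UGT2A1 was therefore the UGT2 row with the large difference, and the paralogs UGT2B17 and UGT2B31 resemble each other closely enough that reads may have been split between them.

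Summed over the 7 UGT rows, the level was 7947 in IM pigs, 5885 in CM pigs and 7818 in CMT pigs. The CM to IM ratio of the sum was 0.741 (0.726 to 0.755) and the CMT to IM ratio 0.984. UGT2B17 made up 43.6% of that sum in IM pigs, 48.3% in CM pigs and 38.6% in CMT pigs, while UGT2A1 made up 25.9%, 17.8% and 27.4%. The lower sum in CM kept its direction under each scaling, at a log2 ratio of -0.43 as deposited and -0.19 when scaled to recovered reads.

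GSTA1, an alpha-class GST that also carries steroid isomerase activity and binds bilirubin and bile acids, was the most abundant member in every library. Its FPKM was 19021 in IM pigs, 25395 in CM pigs and 11614 in CMT pigs. CMT was the low library, at 0.457 of CM (0.451 to 0.464) and 0.611 of IM (0.601 to 0.620), and CM was 1.34-fold above IM (1.32 to 1.35), under the 1.5-fold threshold. As deposited, GSTA1 was the only member at least 1.5-fold below both other libraries in CMT, which 5.44% of all features were. GSTA4, an alpha-class GST with high activity towards the lipid peroxidation product 4-hydroxynonenal, had 149 in IM pigs, 271 in CM pigs and 325 in CMT pigs, from 236, 587 and 420 reads. Here IM was the low library, with CM 1.83-fold higher (1.57 to 2.13) and CMT 2.19-fold higher (1.86 to 2.58). GSTA4 and GSTO2 were the members at least 1.5-fold below both other libraries in IM, as were 2.79% of all features. The CMT to CM ratio of 1.20 (1.06 to 1.36) stayed within the threshold and fell below 1 when scaled to recovered reads. GSTA1 and GSTA4 lie close together in RefSeq's pig assembly Sscrofa11.1, with 3 annotated genes between them. As deposited they had their highest values in different libraries, but both were highest in CM when scaled to recovered reads.

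Of the other 5 GST rows, GSTZ1, GSTO1 and GSTK1 were lowest in CM. GSTZ1, the zeta-class enzyme that isomerises maleylacetoacetate in tyrosine breakdown, had an FPKM of 1890 in IM pigs, 1303 in CM pigs and 2339 in CMT pigs. CMT was 1.80-fold above CM (1.73 to 1.87), a call lost when scaled to recovered reads, and CM at 0.689 of IM (0.663 to 0.717) lay just outside the threshold. GSTO1, the omega-class enzyme with thioltransferase activity, had 5772 in IM pigs, 4231 in CM pigs and 5219 in CMT pigs, and GSTK1, the kappa-class enzyme of mitochondria and peroxisomes, had 3545, 2572 and 3169 in the same order. No ratio of GSTO1 or GSTK1 reached 1.5-fold, and their CM to IM ratios were alike at 0.733 (0.723 to 0.743) and 0.726 (0.697 to 0.756).

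GSTP1, the pi-class enzyme that in many mammals is more abundant in bile duct cells than in hepatocytes, had 1409 in IM pigs, 1023 in CM pigs and 844 in CMT pigs. Only the CMT to IM ratio of 0.599 (0.578 to 0.621) passed the threshold. GSTO2, which reduces dehydroascorbate, was scarce, at 1.35 in IM pigs, 2.57 in CM pigs and 4.64 in CMT pigs. These values rest on 5, 13 and 14 reads, and the intervals of the CM to IM ratio of 1.91 (0.638 to 6.84) and the CMT to CM ratio of 1.81 (0.787 to 4.17) include 1. The CMT to IM ratio of 3.45 (1.17 to 12.2) does not, but it does if both mates of a pair were counted (0.820 to 42.5). A difference in GSTO2 between CM and either other library was thus not detectable at this depth.

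Over the 7 GST rows the summed FPKM was 31787 in IM pigs, 34798 in CM pigs and 23515 in CMT pigs. GSTA1 set this order, since it made up 59.8% of that sum in IM pigs, 73.0% in CM pigs and 49.4% in CMT pigs. Without GSTA1 the sum was 12766 in IM pigs, 9403 in CM pigs and 11901 in CMT pigs, and its CM to IM ratio was 0.737 (0.725 to 0.748) in place of 1.09 (1.08 to 1.10). The GST sum with GSTA1 and the sum without it therefore ran in opposite directions between CM and IM. Of the 6 rows in the second sum, GSTA4 and GSTO2 were higher in CM. The rows named GSTM3 and GSTT1, described under other observations, are in neither sum.

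**Figure D3:**
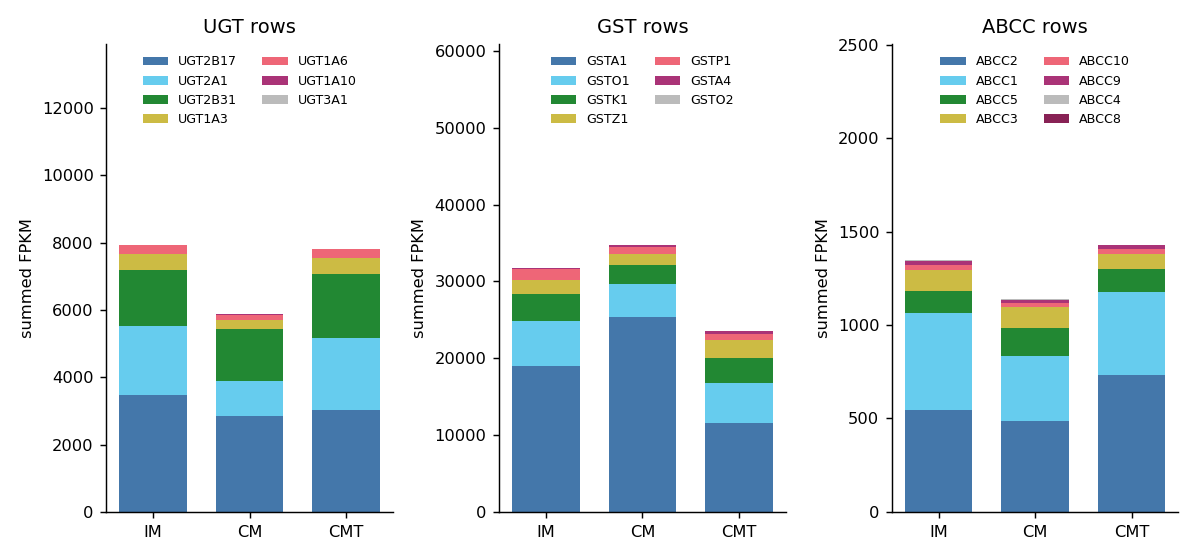
Summed FPKM of the UGT, GST and ABCC rows in IM, CM and CMT, stacked by gene, with each axis starting at 0. UGT2A1 is the band that shrinks most in the CM bar of the UGT panel, and GSTA1 fills 73.0% of the CM bar and 49.4% of the CMT bar in the GST panel.

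The microsomal enzymes are membrane proteins of another fold than the cytosolic GSTs. MGST3, which has glutathione transferase and peroxidase activity, had an FPKM of 3431 in IM pigs, 1573 in CM pigs and 3266 in CMT pigs, from 3936, 2458 and 3045 reads. CM was lower than IM at a ratio of 0.458 (0.436 to 0.482), CMT was 2.08-fold above CM (1.97 to 2.19), and both calls held under every scaling. MGST2, which can also make leukotriene C4, had 147 in IM pigs, 173 in CM pigs and 159 in CMT pigs, with all ratios within 1.5-fold, and another row of the files bears its name in RefSeq. MGST3, UGT1A3, UGT1A6 and UGT2A1 were the 4 members at least 1.5-fold below both other libraries in CM, 18.2% of the members beside 7.12% of all features. After scaling to recovered reads MGST3 and UGT2A1 still were, beside 3.74% of all features.

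Among the ABCC carriers, ABCC2 (MRP2), which exports glucuronide and glutathione conjugates across the canalicular membrane into bile, had an FPKM of 548 in IM pigs, 487 in CM pigs and 734 in CMT pigs. Its CMT to CM ratio of 1.51 (1.40 to 1.62) lay just past the threshold and was below it under each scaling alternative. Its CM to IM ratio was 0.890 (0.829 to 0.957) as deposited, but above 1 when scaled to recovered reads or to equal column sums. ABCC3 (MRP3), the basolateral exporter of glucuronides, had 111 in IM pigs, 110 in CM pigs and 81.5 in CMT pigs. No ratio passed the threshold as deposited, but ABCC3 was called lower in CMT than CM when scaled to recovered reads or to equal column sums. ABCC1 (MRP1) had 515 in IM pigs, 349 in CM pigs and 442 in CMT pigs, and its 1.48-fold lower value in CM than IM lay just outside the threshold.

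ABCC5, an exporter of cyclic nucleotides, had 119 in IM pigs, 149 in CM pigs and 121 in CMT pigs, and ABCC10 had 28.5, 24.9 and 25.6. Neither passed the threshold as deposited, and ABCC5 was called higher in CM than IM when scaled to equal column sums. ABCC9, like its relative ABCC8 a potassium channel subunit, had 21.2 in IM pigs, 15.3 in CM pigs and 24.0 in CMT pigs. CMT was 1.57-fold above CM for ABCC9 (1.21 to 2.04), under the threshold after scaling by the upper quartile, to recovered reads or to equal column sums. ABCC4 (MRP4), a basolateral exporter of bile acids and conjugated steroids, was scarce at 3.34 in IM pigs, 1.30 in CM pigs and 1.45 in CMT pigs. Its CM to IM ratio of 0.389 (0.0809 to 1.37) and CMT to IM ratio of 0.434 (0.0788 to 1.92) passed the fold threshold. Both intervals include 1, but they stand on reads per kilobase in place of reads. Whether these differences exceed counting error is therefore not settled. A second, higher row bearing the name ABCC4 in RefSeq had a CM to IM ratio above 1. The ABCC sum was 1346 in IM pigs, 1138 in CM pigs and 1431 in CMT pigs, and its lower value in CM was lost when scaled to recovered reads, where the log2 ratio of CM to IM was 0.0019. ABCC2 made up 40.7% of that sum in IM pigs, 42.8% in CM pigs and 51.3% in CMT pigs.

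The genes that make glutathione and process its conjugates held differences larger than that of any member. Conjugates are trimmed to cysteine derivatives and N-acetylated by NAT8 to mercapturic acids. NAT8 had an FPKM of 5274 in IM pigs, 288 in CM pigs and 5515 in CMT pigs, from 31891, 2374 and 27104 reads. CM was at 0.0546 of IM (0.0524 to 0.0570), and CMT was 19.1-fold above CM. CHAC1, which degrades glutathione inside the cell and is induced by the unfolded protein response, had 280 in IM pigs, 2.07 in CM pigs and 271 in CMT pigs, from 1190, 12 and 936 reads, a CM to IM ratio of 0.00740 (0.00381 to 0.0130). In both genes the IM and CMT libraries were close and CM stood far below.

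Of the 9 glutathione synthesis and recycling genes past the minimum, 3 were higher in CM than IM (GCLC, CHAC2 and SLC7A11) and 2 lower (CTH and CHAC1), beside 11.1% and 12.1% of all features. GCLC, the catalytic subunit of the rate-limiting enzyme of glutathione synthesis, had 493 in IM pigs, 780 in CM pigs and 503 in CMT pigs, with a CM to IM ratio of 1.58 (1.53 to 1.64). Its regulatory partner GCLM had 94.4 in IM pigs, 82.6 in CM pigs and 136 in CMT pigs, and CMT was 1.65-fold above CM (1.53 to 1.78). Between CM and IM the catalytic subunit thus passed the threshold and the regulatory subunit, at a ratio of 0.875 (0.810 to 0.945), did not. CTH, which makes cysteine from cystathionine, had 2046 in IM pigs, 1152 in CM pigs and 1629 in CMT pigs, a CM to IM ratio of 0.563 (0.533 to 0.594). The calls of CTH in CM versus IM and of GCLM in CMT versus CM were lost when scaled to recovered reads.

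SLC7A11, the cystine importer, was scarce at 3.07 in IM pigs, 8.00 in CM pigs and 2.10 in CMT pigs, from 9, 32 and 5 reads, and CM was 2.61-fold above IM (1.22 to 6.22), an interval that includes 1 if both mates of a pair were counted (0.947 to 12.1). CHAC2, a slower relative of CHAC1, had 3.34 in IM pigs, 8.99 in CM pigs and 11.6 in CMT pigs, and CM was 2.69-fold above IM (1.40 to 5.60). In CMT versus CM, 2 of these 9 genes were higher (GCLM and CHAC1) and 2 lower (GCLC and SLC7A11), beside 12.1% and 13.5% of all features. Between CM and IM the list had a median log2 ratio of -0.19, and between CMT and CM one of 0.41.

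Of the 6 mercapturic acid genes past the minimum, NAT8 was the only one past the threshold in CM versus IM, beside 23.2% of all features. In CMT versus CM, beside 25.7% of all features, NAT8 was joined by ACY1, the aminoacylase that removes acetyl groups again. ACY1 had 2150 in IM pigs, 1491 in CM pigs and 2668 in CMT pigs. Its CMT to CM ratio was 1.79 (1.73 to 1.85), a call lost when scaled to recovered reads. DPEP1, a dipeptidase of this route named here after its values were seen, did not reach the minimum, at 0.545 in IM pigs, 14.0 in CM pigs and 1.34 in CMT pigs from 1, 35 and 2 reads, a CM to IM ratio of 25.7 (4.32 to 1043). On a further list of 5 genes past the minimum, which held relatives of MGST, other glutathione-dependent enzymes and FAH, the hydrolase that follows GSTZ1 in tyrosine breakdown, LTC4S, the leukotriene C4 synthase, had 1977 in IM pigs, 912 in CM pigs and 1989 in CMT pigs, at a CM to IM ratio of 0.462 (0.437 to 0.488). Its relative ALOX5AP had 6.10, 4.60 and 9.29 in the same order. The CMT to CM ratio of ALOX5AP was 2.02 (0.970 to 4.14), an interval on reads per kilobase that includes 1.

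Of the 5 genes past the minimum that supply UDP-glucuronic acid or split glucuronides, SLC35D1, which carries UDP-glucuronic acid into the endoplasmic reticulum, passed the threshold with 170 in IM pigs, 110 in CM pigs and 122 in CMT pigs. Its CM to IM ratio of 0.648 (0.555 to 0.756) was lost as a call when scaled by the upper quartile, to recovered reads or to equal column sums. The other 4 stayed within 1.5-fold in all comparisons as deposited, and of all features 12.1% were lower in CM than IM. Of 4 regulators, AHR, the aryl hydrocarbon receptor, had 168 in IM pigs, 53.6 in CM pigs and 255 in CMT pigs. Its CM to IM ratio was 0.318 (0.266 to 0.379) and its CMT to CM ratio 4.76 (4.03 to 5.68). Of all features, 12.1% were higher in CMT than CM. A part of AHR in the differences of the members was not tested. NR1I2, NFE2L2 and HNF4A stayed within 1.5-fold in every comparison as deposited. Scaled to recovered reads, NR1I2 and, of the supply genes, UGDH passed it as lower in CMT than CM.

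**Figure D4:**
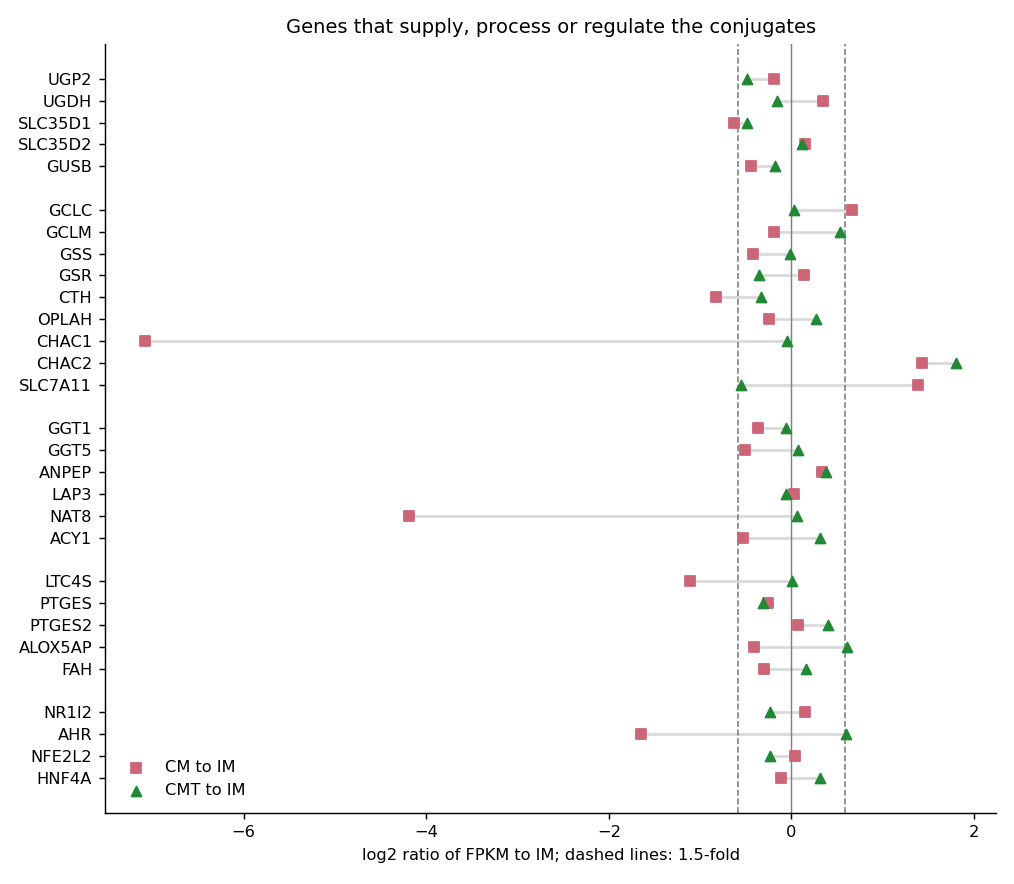
log2 ratio of FPKM to IM for the genes past the minimum that supply, process or regulate the conjugates, grouped from top to bottom as UDP-glucuronic acid supply, glutathione synthesis and recycling, mercapturic acid steps, other glutathione-linked genes with FAH, and regulators, with squares for CM, triangles for CMT and dashed lines at 1.5-fold. CHAC1 and NAT8 lie far to the left in CM while their CMT points lie near 0, and LTC4S, AHR and CTH follow with smaller differences.

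Of 8 other carriers of hepatocytes and bile ducts, CFTR was higher and SLC10A1 lower in CM than IM, beside 11.1% and 12.1% of all features. SLC10A1 (NTCP), which takes bile acids up from blood, had 2536 in IM pigs, 1282 in CM pigs and 2458 in CMT pigs, a CM to IM ratio of 0.505 (0.486 to 0.525). SLCO2B1, an uptake carrier for steroid sulfates, had 663 in IM pigs, 552 in CM pigs and 1018 in CMT pigs, and CMT was 1.84-fold above CM (1.78 to 1.90). CFTR, the bile duct chloride channel, had 4.34 in IM pigs, 7.31 in CM pigs and 3.34 in CMT pigs from 24, 55 and 15 reads. Its CM to IM ratio of 1.68 (1.02 to 2.84) likewise has an interval that includes 1 if both mates were counted (0.843 to 3.70). The CMT to CM ratio of CFTR was 0.457 (0.240 to 0.821), or 0.189 to 1.08 if both mates were counted. In CMT versus CM, 2 of the 8 were higher (SLC10A1 and SLCO2B1) and 1 lower (CFTR), beside 12.1% and 13.5% of all features. ABCB1 was also called lower there under every scaling, and ABCG2 when scaled to recovered reads or to equal column sums.

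Markers of the cells that liver holds were present in every library, with no matched marker at 0. The summed FPKM of the 6 hepatocyte markers was 1002060 in IM pigs, 735672 in CM pigs and 770982 in CMT pigs, of which albumin held most, and 1 of the 6, FGB, was lower in CM than IM. For 5 T and NK cell markers the sum was 403 in IM pigs, 550 in CM pigs and 305 in CMT pigs, with 4 of the 5 lower in CMT than CM. None of the 5 passed 1.5-fold in CM versus IM as deposited. All 5 were higher in CM after scaling to recovered reads, as were 20.1% of all features. As deposited, 11.1% of all features were higher and 12.1% lower in CM than IM. In CMT versus CM these shares were 12.1% and 13.5%.

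The 3 bile duct markers summed to 852 in IM pigs, 798 in CM pigs and 1182 in CMT pigs, of which SPP1 held most, but the other 2 were higher in CM than IM. EPCAM had 36.6 in IM pigs, 62.6 in CM pigs and 41.4 in CMT pigs, a CM to IM ratio of 1.71 (1.39 to 2.13), and SOX9 had a CM to IM ratio of 1.83 (0.774 to 4.82), within counting error. UGT1A10 and CFTR were also highest in CM, as were GSTA1, ABCC5 and MGST2. SPP1 and GSTP1 were lower in CM than IM, at ratios of 0.897 and 0.726. The 6 macrophage markers summed to 11592 in IM pigs, 11116 in CM pigs and 12179 in CMT pigs, and 1 of them, MARCO, was lower in CM, at 414 in IM pigs, 82.8 in CM pigs and 317 in CMT pigs. In CMT versus CM, MARCO at 3.83 (3.43 to 4.29) and CD163 at 1.52 (1.35 to 1.72) were higher, while 3 of the 6 had a ratio below 1. The CD163 call was lost when scaled by the upper quartile, to recovered reads or to equal column sums. The sums were 894, 852 and 740 for 6 stellate cell markers and 1331, 1127 and 1224 for 6 endothelial markers, in the order IM, CM and CMT. These marker genes were named after their values were seen, and the part of these cell types in the differences above was not tested.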

How the data were processed

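Each library held the pooled liver RNA of 1 group, intact (IM), castrated (CM) or castrated and testosterone-treated (CMT). The authors checked 100-bp paired-end reads with FastQC, mapped them to pig genome build Sscrofa 10.2 with TopHat and deposited, for each of 34579 features, an FPKM value. The program that counted the reads and the annotation are not given in the sources used here.

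FPKM values were compared as ratios, with no pseudocount and no rescaling, and an mRNA feature was called at a 1.5-fold ratio if every library had an FPKM of 1 or more. No p-value was computed. Within most genes the values were whole multiples of a step, from which reads were recovered for 23091 of the 24277 features above 0 (95.1%), with lengths searched up to 10000 bases and the smallest that fitted taken, so a common factor can be lost. The overall factor was set on mitochondrial genes, where 9 of 13 lengths came within 2 bases. The recovery and the calls were tested on simulated data with known answers, drawn from features with recovered reads and with counting error only. All 200 changed genes were called, but they were well covered and changed beyond the threshold, so little follows from that. Of 14925 unchanged mRNA features past the minimum, 371 were called higher. The simulation does not cover spread between pigs or members without recovered reads. For 9 members no reads were recovered (UGT1A3, UGT1A6, UGT2A1, UGT2B17, UGT2B31, GSTA1, ABCC2, ABCC4 and ABCC10), and their intervals, like those of family sums, use FPKM times the library's reads per kilobase, a choice made after seeing the data. The same holds for the intervals of the list genes ALOX5AP, AHR and SLC10A1. Such intervals do not measure the counting error of the reads themselves.

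The members and gene lists were chosen with earlier results of these data known. Of 83 list symbols, 11 were not matched, and 1 further list gene is not reported here. A member is named with its values if its FPKM was at least 10 in every library, or at least 1 with any ratio past 1.5-fold, and a pathway list gene, cell type markers left out, if it was past 1.5-fold in CM versus IM or CMT versus CM. Sequences were not used here, and gene positions only to count the genes between GSTA1 and GSTA4. Gene names were looked up in RefSeq (Sscrofa11.1), where 17 of the 24 members matched by symbol. Tools were Python 3.11.15, numpy 2.4.6, pandas 2.3.3, scipy 1.17.1 and matplotlib 3.10.9.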

Additional observations from a re-analysis of the deposited data

How the results depend on the processing

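With 1 library per group there was no replicate to leave out. No paired analysis was possible because each group has 1 library. A pseudocount of 1, no FPKM minimum, and rows of every feature type left each count of members within 1.5 times its value. The share of all features called under these alternatives lay between 2.16% and 6.37% per direction with a 2-fold threshold and between 3.92% and 10.9% with an FPKM minimum of 10. With an FPKM minimum of 10, 1 member was higher in CM than IM, 1 lower in CMT than CM and 1 higher in CMT than IM, since scarce members were not tested. With a 2-fold threshold, 1 member was higher and 2 lower in CM than IM, 2 were higher in CMT than CM and 1 was lower in CMT than IM. Scaled to recovered reads, 2 members were higher in CMT than CM, and scaled to equal column sums 5 were higher in CM than IM and 5 in CMT than CM. Where the interval on recovered reads also had to lie to one side of 1, 1 member was lower in CM than IM (9.02% of all features), 3 were higher (9.29%) and 1 lower (9.63%) in CMT than CM and 1 lower in CMT than IM (5.67%), since members without recovered reads could not pass. With the intervals on reads per kilobase for those members, the counts were 4, 7, 2 and 2. No share of all features on that basis stands beside these counts, so they cannot be set against a background. With intervals on 0.5 of the reads, added after seeing the data, the counts on recovered reads were again 1 (7.90%), 3 (8.33%), 1 (7.50%) and 1 (3.91%), and 1 member was higher in CMT than IM (2.90%). With the numbered rows described under other observations added, also after seeing the data, 6 members were higher in CM than IM, 4 lower in CMT than CM and 5 lower in CMT than IM, beside the same 11.1%, 13.5% and 10.1% of all features.

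The log2 ratios of the UGT sum, as deposited, were -0.43 for CM to IM, 0.41 for CMT to CM and -0.02 for CMT to IM. They were -0.39, 0.33 and -0.059 scaled by the upper quartile, -0.19, 0.13 and -0.058 scaled to recovered reads, and -0.18 and 0.16 for the first 2 with equal column sums. Those of the GST sum were 0.13, -0.57 and -0.43 as deposited, 0.15 for CM to IM scaled by the median ratio, 0.17, -0.64 and -0.47 by the upper quartile, 0.37, -0.84 and -0.47 to recovered reads, and 0.39 and -0.81 with equal column sums. Those of the ABCC sum were -0.24 for CM to IM and 0.33 for CMT to CM as deposited, 0.25 for CMT to CM by the upper quartile, 0.0019 and 0.052 to recovered reads, and 0.015 and 0.083 with equal column sums. Of the 66 log2 ratios of members past the minimum, scaling to recovered reads changed the sign of 10 and equal column sums that of 8, none of them past 1.5-fold.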

Other observations

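Some rows of the files carry a RefSeq gene number in place of a symbol, and 4 mRNA rows of that kind bear a name of these families in RefSeq. They were found after the members' values had been seen and are not among the 24 members. The row named GSTM3, a mu-class GST, had an FPKM of 650 in IM pigs, 1123 in CM pigs and 374 in CMT pigs, from 2462, 5798 and 1152 reads. Its CM to IM ratio was 1.73 (1.65 to 1.81) and its CMT to CM ratio 0.333 (0.312 to 0.355). The row named GSTT1, a theta-class GST, had 394 in IM pigs, 863 in CM pigs and 259 in CMT pigs, from 1032, 3078 and 551 reads, with a CM to IM ratio of 2.19 (2.04 to 2.35) and a CMT to CM ratio of 0.300 (0.274 to 0.329). Both rows were highest in CM and lowest in CMT, the order that GSTA1 also had.

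The other 2 rows bear names that a member row already holds. A second ABCC4 row had 16.2 in IM pigs, 26.4 in CM pigs and 19.0 in CMT pigs, from 205, 456 and 196 reads, a CM to IM ratio of 1.63 (1.38 to 1.93). The row under the symbol ABCC4 had 3.34, 1.30 and 1.45 in the same order, so the 2 ABCC4 rows lay on opposite sides of 1 between CM and IM, and the level of this gene is uncertain. A second MGST2 row had 524 in IM pigs, 668 in CM pigs and 474 in CMT pigs, beside 147, 173 and 159 under the symbol, and neither row reached 1.5-fold.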
